A study of Homo sapiens with 6 samples.

Results

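The nuclear-encoded genes of respiratory complex I and of its assembly were followed in HOS cells, an established human osteosarcoma line, with and without Agrimol B. The members were all genes whose symbol starts with NDUF and holds no hyphen, 47 of the 16376 genes in the deposited table. Symbols starting with NDUFAF were taken as assembly factors (8 genes) and the others as subunits (39 genes). The read-through gene NDUFC2-KCTD14 was left out by the hyphen. No measured value entered this rule, which was set with earlier results of these data known.

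RNA of 6 libraries was sequenced: 3 of wild-type cells that received Agrimol B over 24 h, and 3 of wild-type control cells. Agrimol B is a polyphenol of the agrimony plant. The labels state neither its dose nor whether control cells received its solvent. All libraries come from a single line, nothing in the labels says that the replicates came from separate cultures, so that p-values measure the spread among 6 libraries that may be technical replicates.

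Complex I is the entry point of the respiratory chain in the inner mitochondrial membrane. It takes electrons from NADH, passes them over a flavin and a row of iron-sulfur clusters to ubiquinone, and pumps protons. Its L-shaped structure has a matrix arm, built from an N module that oxidises NADH and a Q module that reduces ubiquinone, and a membrane arm with proton-pumping core subunits that mitochondrial DNA encodes. The remaining core subunits, all in the matrix arm, and a large set of accessory subunits are encoded in the nucleus. Assembly factors help to build the complex and are not part of the finished enzyme. The mitochondrially encoded subunits were not analysed here.

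With Agrimol B most complex I transcripts differed little, and those that differed went both ways. Differences were tested with limma on log2(FPKM + 1), where FPKM is a read abundance scaled to transcript length and library size, over 12143 genes whose mean reached 1 FPKM. The threshold was a Benjamini-Hochberg adjusted p of 0.05. Of 46 members tested, 12 fell, 6 rose and 28 were not called. Among all tested genes 52.0% were called, 30.6% higher and 21.4% lower with Agrimol B, so the share of members that fell (26.1%) lay near that of all genes and the share that rose (13%) was smaller. The median log2 difference was -0.06 over the members and 0.07 over all tested genes. The nearness of the shares that fell depended on the scaling. With median-ratio scaling of the libraries 34.8% of members fell, against 26.1% of all tested genes. With quantile normalization the shares were 26.1% and 25.4%. In RNA of whole cultures, fewer cells that carry a transcript and less of it per cell cannot be told apart.

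Of 38 tested subunits 11 fell and 5 rose (28.9% and 13.2%), with a median log2 difference of -0.10. Of 8 assembly factors NDUFAF7 fell, NDUFAF2 rose (12.5% each) and 6 were not called (median 0.04). Among all tested genes 21.4% fell and 30.6% rose. With median-ratio scaling of the libraries, 15 subunits fell and 4 rose (39.5% and 10.5%), against 26.1% and 25.3% of all tested genes. The median of the assembly factors then became -0.03. With quantile normalization, under which 25.4% of all tested genes were lower and 25.5% higher, that median was -0.04. The largest fall was that of NDUFB9, the only tested member past a 2-fold difference. Of all tested genes, 4.04% were both called and at least 2-fold different on the log2 scale. The FPKM summed over the 39 subunits was 2783, 2703 and 2738 in the control libraries and 2439, 2533 and 2552 in the Agrimol B libraries, 8.50% lower in the means. The groups did not overlap in this sum. The largest drops in mean FPKM were those of NDUFV2 (174 to 122), NDUFB9 (88.9 to 42.4), NDUFS5 (154 to 116) and NDUFS8 (175 to 141, not called). The drop was not shared by all: 22 of the 38 tested subunits were not called and 5 rose. The 8 assembly factors together had 197, 200 and 191 FPKM in control and 216, 209 and 210 FPKM with Agrimol B, 7.78% higher in the means. That increase came from NDUFAF2 alone: without it the sum was 148, 150.3 and 142 FPKM in control and 146, 144 and 143 FPKM with Agrimol B, with overlapping groups.

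**Figure D1:**
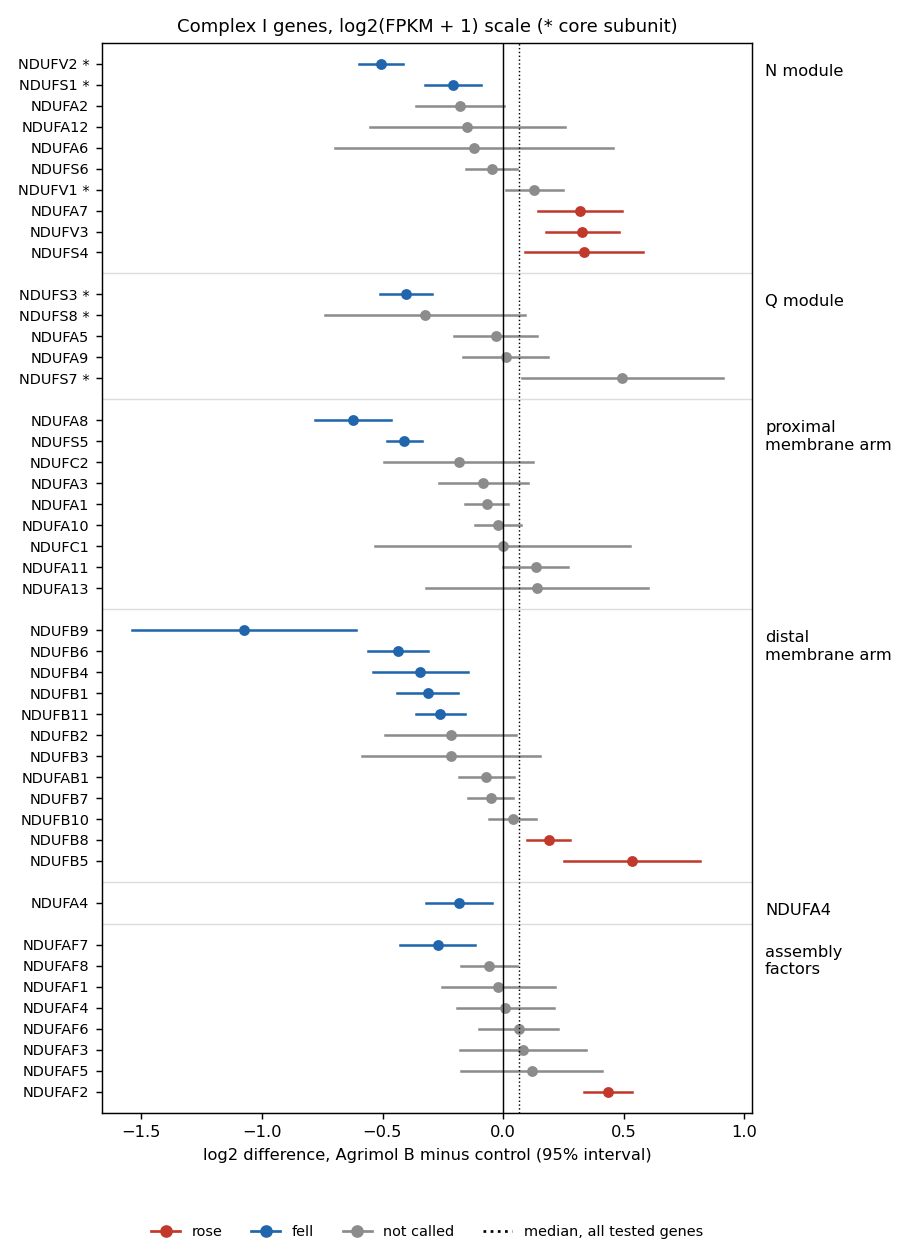
Log2 difference, Agrimol B minus control, on the log2(FPKM + 1) scale for 45 of the 46 tested members, ordered within the modules of the complex; points are estimates from 3 libraries per group, bars 95% intervals, colours the call, asterisks core subunits. Falls and rises stand side by side in the N module and the distal membrane arm, and NDUFB9 lies farthest from 0 at -1.08.

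Transcript levels spread widely between members. FPKM is scaled to transcript length, which allows a rough comparison of levels between genes. The transcript lengths used and the treatment of reads that match several places are unknown. Control means ran from 4.35 FPKM for the assembly factor NDUFAF5 to 175 FPKM for the core subunit NDUFS8 among the tested members, and 22 of the 47 members stood at 50 FPKM or above. Over the 6 libraries the median level of the subunits was 48.6 FPKM and that of the assembly factors 12.9 FPKM, beside 11.1 FPKM for all tested genes. NDUFS8, NDUFV2, NDUFV1 and NDUFS5 were the highest in control, at 175 ± 22.4, 174 ± 3.71, 161 ± 9.08 and 154 ± 1.07 FPKM (SD, n = 3). NDUFS8 and NDUFV2 did not differ beyond their spread, and neither did NDUFV1 and NDUFS5. With Agrimol B NDUFV1 stood first at 176 ± 1.88 FPKM, NDUFA11 at 151 ± 8.42 FPKM and NDUFB8 at 142 ± 4.09 FPKM. The lowest subunit that entered the test was NDUFV3.

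**Figure D2:**
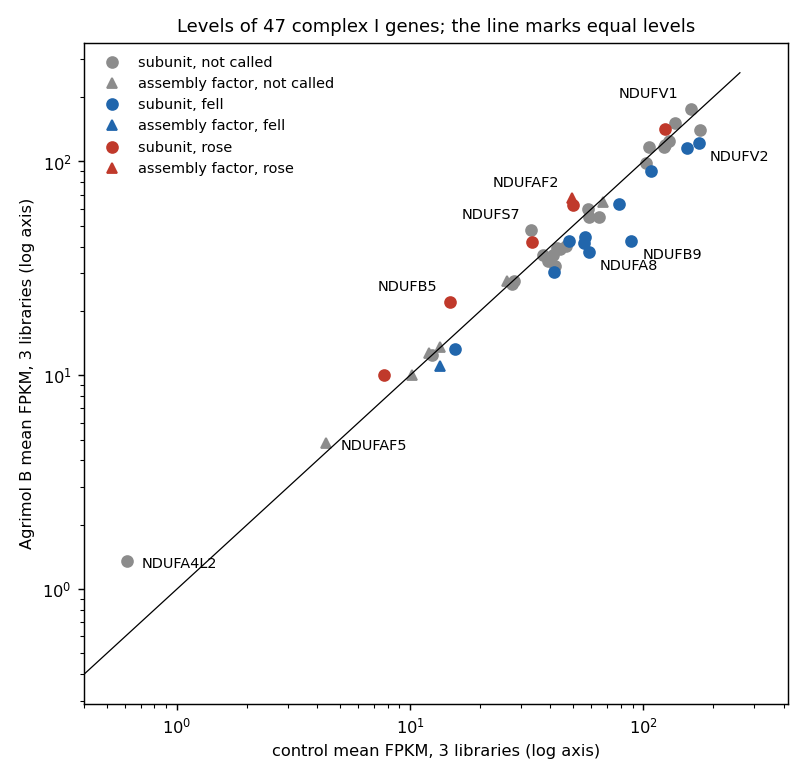
Mean FPKM with Agrimol B against mean FPKM in control for the 47 members, both axes logarithmic, 3 libraries per group; circles are subunits, triangles assembly factors, colours the call, and NDUFA4L2, which was not tested, is drawn in grey. Most members lie close to the line of equal levels, from 4.35 to 175 FPKM in control, and NDUFB9 lies farthest below it among the tested members.

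The genes of the complex are scattered over 22 chromosomes, with 2 members, NDUFA1 and NDUFB11, on X. All 47 were matched by name to GENCODE release 29 on GRCh38 (hg38, the build the submitters' processing notes name). By GENCODE gene starts, 14 of the 47 (29.8%) have another coding gene starting in the opposite direction within 1000 bases, against 11.1% of 12077 tested coding genes. Of the 300-base windows around RefSeq gene starts (GRCh38.p14, 250 bases before to 50 after), 39 could be matched to members. The motif of NRF1, a regulator of respiratory genes, reads GCGCA, any base, GCGC, and was found in 7 of these 39 (17.9%) on either strand, against 6.28% of all 27305 windows and 12.1% of those of tested genes. The motif AAGATGG of YY1 was also in 7, against 6.06% of all windows and 7.62% of those of tested genes. The ETS motif CCGGAAG was in 6 (15.4%), more than the 10.7% of all windows and less than the 19.9% of those of tested genes. CCAAT was in 11 (28.2%), against 35.7% and 36.6%. The ETS motif ends with the letters that begin the YY1 motif, so that matches can overlap.

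The stretches before the start of NDUFB4 and NDUFV2, which fell, and of NDUFV3, which rose, are shown because these genes changed in different directions and differ in the motifs found. Each runs 5′ to 3′ on the plus strand, covers the part of the 250 bases that no GENCODE exon overlaps, and has motif matches in capitals. NDUFB4 (chr3:120596086-120596308) has 2 NRF1 matches, NDUFV2 (chr18:9102449-9102629) has no match to any of the 4 motifs in this stretch, and NDUFV3 (chr21:42893059-42893264) has 2 CCAAT matches, read on the other strand. The RefSeq start of NDUFV3 lies inside the longer GENCODE gene.
NDUFB4: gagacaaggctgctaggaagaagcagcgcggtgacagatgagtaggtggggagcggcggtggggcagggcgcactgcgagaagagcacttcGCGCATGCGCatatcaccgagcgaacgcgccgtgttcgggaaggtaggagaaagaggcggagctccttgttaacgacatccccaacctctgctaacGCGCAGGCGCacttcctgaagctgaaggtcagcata
NDUFV2: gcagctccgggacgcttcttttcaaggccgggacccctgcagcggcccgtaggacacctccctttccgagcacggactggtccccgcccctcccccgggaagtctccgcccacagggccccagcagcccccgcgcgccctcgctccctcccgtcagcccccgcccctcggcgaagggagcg
NDUFV3: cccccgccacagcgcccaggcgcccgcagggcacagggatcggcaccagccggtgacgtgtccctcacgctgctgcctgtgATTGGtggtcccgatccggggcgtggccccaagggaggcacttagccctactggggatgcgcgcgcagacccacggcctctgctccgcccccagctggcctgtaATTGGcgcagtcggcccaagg
Among the 9 members with a window that fell, 2 had an NRF1 match, 2 an ETS match, 2 a CCAAT match and 0 a YY1 match. Among the 5 that rose the numbers were 0, 0, 2 and 2 in the same order. A match describes letters only, and these counts were not tested.

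In the N module, where NADH is oxidised, both calls downward were core subunits and all calls upward accessory subunits. Of its 10 genes 2 fell and 3 rose, with a median log2 difference of -0.08. These shares, 20% and 30%, lay near the 21.4% and 30.6% of all tested genes. NDUFV2, which carries an iron-sulfur cluster next to the flavin (chromosome 18, 9102630 to 9134345, plus strand), had 170, 173 and 178 FPKM in control and 126, 120.2 and 120.0 FPKM with Agrimol B. All Agrimol B values lay below all control values, and NDUFV2 fell 1.42-fold (log2 difference -0.51, SE 0.04, limma adjusted p = 0.000156). NDUFS1, the large iron-sulfur subunit of the module, fell from 15.1, 15.4 and 15.9 FPKM to 13.5, 12.8 and 13.5 FPKM (adjusted p = 0.0116). NDUFV1, which binds the flavin and NADH, had 151, 162 and 169 FPKM in control and 177, 174 and 176 FPKM with Agrimol B. The groups did not overlap, but NDUFV1 was not called (log2 difference 0.13, adjusted p = 0.0639). It passed with quantile normalization (0.0164) and without control replicate 3 (0.0352), over a range of 0.0164 to 0.355 across the alternatives.

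The 3 rises of this module were all in accessory subunits. NDUFV3, a small subunit at the tip of the matrix arm, had 7.65, 8.06 and 7.50 FPKM in control and 9.28, 10.1 and 10.5 FPKM with Agrimol B, 1.29-fold higher (adjusted p = 0.00574). NDUFA7 rose 1.25-fold, from 54.4, 47.7 and 47.9 to 58.4, 65.6 and 63.6 FPKM (adjusted p = 0.0113). Neither gene's groups overlapped. NDUFS4, a subunit whose loss causes Leigh syndrome, had 37.7, 33.5 and 28.8 FPKM in control and 41.0, 44.3 and 41.0 FPKM with Agrimol B (1.26-fold, adjusted p = 0.0316). Its call was lost with median-ratio scaling (0.0649), quantile normalization (0.0526), and without control replicate 2 (0.0715) or Agrimol B replicate 1 (0.0643), 2 (0.0914) or 3 (0.0654), within a range of 0.0120 to 0.0914 over the alternatives. NDUFA2, NDUFA6, NDUFA12 and NDUFS6 were not called. NDUFA6, which belongs to the LYR family of small mitochondrial proteins, varied within both groups, at 49.0, 30.9 and 48.5 FPKM in control and 50.5, 32.4 and 34.8 FPKM with Agrimol B.

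In the Q module, which hands electrons to ubiquinone, most members were not called. Of its 6 genes only NDUFS3 fell and 0 rose. These shares, 16.7% and 0%, stand beside 21.4% and 30.6% of all tested genes. NDUFS3, a core subunit that joins the module's parts (chromosome 11, 47565336 to 47584562, plus strand), had 55.4, 54.7 and 56.3 FPKM in control and 41.2, 40.3 and 43.8 FPKM with Agrimol B. The groups were far apart, and the difference was 1.33-fold (log2 difference -0.40, SE 0.04, adjusted p = 0.000702). PTPMT1, which overlaps it on the same strand, also fell, from a mean of 24.4 to 18.8 FPKM (adjusted p = 0.00121), and how reads in the shared span were assigned was not tested.

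The core subunits NDUFS7 and NDUFS8 varied between replicate libraries, NDUFS7 mainly with Agrimol B and NDUFS8 in both groups. NDUFS7, which carries the last iron-sulfur cluster before ubiquinone, had 32.4, 34.0 and 32.2 FPKM in control and 62.1, 42.0 and 38.8 FPKM with Agrimol B. Agrimol B replicate 1 stood well above the other two, all were above the control libraries, and the gene was not called (log2 difference 0.49, adjusted p = 0.0521). Without that replicate the log2 difference was 0.29 and passed (adjusted p = 0.0119), as it did without Agrimol B replicate 3 (0.62, adjusted p = 0.0323); over the alternatives the adjusted p ran from 0.0119 to 0.118. NDUFS8, which carries iron-sulfur clusters, had 196, 151 and 178 FPKM in control and 109, 153 and 161 FPKM with Agrimol B, with groups that overlapped (adjusted p = 0.156). The accessory subunits NDUFA5 and NDUFA9 differed by -0.03 and 0.01 on the log2 scale.

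Over both modules, 3 of the 7 nuclear core subunits fell (NDUFV2, NDUFS1 and NDUFS3) and 0 rose, with a median log2 difference of -0.33. That median is the value of NDUFS8, which was not called and whose groups overlapped. All Agrimol B values lay below all control values in the 3 core subunits that fell. They lay above in 2, NDUFV1 and NDUFS7, which were not called. Of the 30 accessory subunits outside the NDUFA4 pair, 7 fell and 5 rose (23.3% and 16.7%), with a median of -0.07. Of the core subunits 42.9% fell and 0% rose. Among all tested genes 21.4% fell and 30.6% rose. The difference between core and accessory subunits was not tested.

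In the proximal membrane arm 2 of 9 genes fell and 0 rose. The share that fell was 22.2%, near the 21.4% of all tested genes, of which 30.6% rose. NDUFA8 (chromosome 9, 122144058 to 122159819, minus strand) had 58.1, 57.9 and 59.0 FPKM in control and 35.7, 35.9 and 41.4 FPKM with Agrimol B. It fell 1.55-fold (log2 difference -0.62, SE 0.06, adjusted p = 0.000550), second among the members only to NDUFB9. NDUFS5 (chromosome 1, 39026318 to 39034636, plus strand) had 153, 154 and 155 FPKM in control and 116.4, 116.2 and 114 FPKM with Agrimol B. Its replicates were nearly equal, and it fell 1.33-fold (log2 difference -0.41, SE 0.03, adjusted p = 0.000160). GENCODE lists 6 pseudogenes named after NDUFS5, and the labels do not say how reads that match several places were treated. NDUFA1, NDUFA3, NDUFA10, NDUFA11, NDUFA13, NDUFC1 and NDUFC2 were not called. NDUFA11 passed with quantile normalization (adjusted p = 0.0461, range 0.0461 to 0.393 over the alternatives). NDUFC1 had 25.9, 40.0 and 46.1 FPKM in control and 31.3, 39.2 and 38.8 FPKM with Agrimol B, and NDUFA13 120.3, 113 and 84.9 against 91.0, 130.6 and 130.6 FPKM. For both, the 3 libraries of a group differed more than the group means.

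The distal membrane arm held the most calls, with 5 falls and 2 rises among 12 genes (median -0.22). It was also the module with the most genes. Of its genes 41.7% fell and 16.7% rose, against 21.4% and 30.6% of all tested genes. In either direction 58.3% were called, against 52.0% of all tested genes. NDUFB9, a LYR-family subunit at the far end of the arm (chromosome 8, 124539101 to 124580648, plus strand), had 76.7, 97.5 and 92.6 FPKM in control and 33.3, 39.0 and 54.8 FPKM with Agrimol B. The highest Agrimol B value lay below the lowest control value, although Agrimol B replicate 3 stood apart from replicates 1 and 2. The fall was 2.10-fold (log2 difference -1.08, SE 0.19, adjusted p = 0.00454), and its log2 difference ran from -1.27 without Agrimol B replicate 3 to -0.92 without Agrimol B replicate 1. TATDN1, which overlaps NDUFB9 on the opposite strand, was not called (mean 29.04 FPKM in control, 33.8 FPKM with Agrimol B, adjusted p = 0.125). MTSS1, also on the opposite strand there, rose from 1.25 to 2.66 FPKM (adjusted p = 0.00133), and the labels do not say whether strand was used in counting.

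Falls of smaller size came from NDUFB6, NDUFB4, NDUFB1 and NDUFB11, accessory subunits of the same arm. NDUFB6 had 39.5, 43.2 and 41.4 FPKM in control and 30.1, 29.3 and 31.5 FPKM with Agrimol B (1.37-fold lower, adjusted p = 0.000891). NDUFB4 fell 1.27-fold, NDUFB1 1.25-fold and NDUFB11 by 16.6%, and none of the 3 had overlapping groups. NDUFB4 has 12 pseudogenes named after it in GENCODE, NDUFA5 also 12 and NDUFB9 3. In all, 19 of the 47 members have such pseudogenes, 59 together. What reads that match them add to the values of these members was not tested, so these values are uncertain. CPSF2, whose start lies 20 bases from that of NDUFB1 in the opposite direction, rose from 14.9 to 21.8 FPKM (adjusted p = 0.000250).

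Next to these, NDUFB5 and NDUFB8 rose. NDUFB5 (chromosome 3, 179604690 to 179627647, plus strand) had 15.0, 13.3 and 16.3 FPKM in control and 23.5, 18.7 and 23.8 FPKM with Agrimol B, 1.48-fold higher (log2 difference 0.53, SE 0.12, adjusted p = 0.00968). This was the largest rise among the members called. MRPL47, which starts 36 bases away in the opposite direction, was not called (log2 difference 0.08). NDUFB8 rose 1.14-fold, from 122, 125.1 and 127 to 138, 146 and 142 FPKM (adjusted p = 0.00650). NDUFAB1, the mitochondrial acyl carrier protein to which NDUFB9 and NDUFA6 bind, was not called, at 103 ± 4.28 FPKM in control and 97.8 ± 3.28 FPKM with Agrimol B. NDUFB2, NDUFB3, NDUFB7 and NDUFB10 were not called either. NDUFB3 passed without control replicate 3 (log2 difference -0.40, adjusted p = 0.00214, range 0.00214 to 0.582 over the alternatives); control replicates 1 to 3 had 73.7, 71.6 and 49.4 FPKM.

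**Figure D3:**
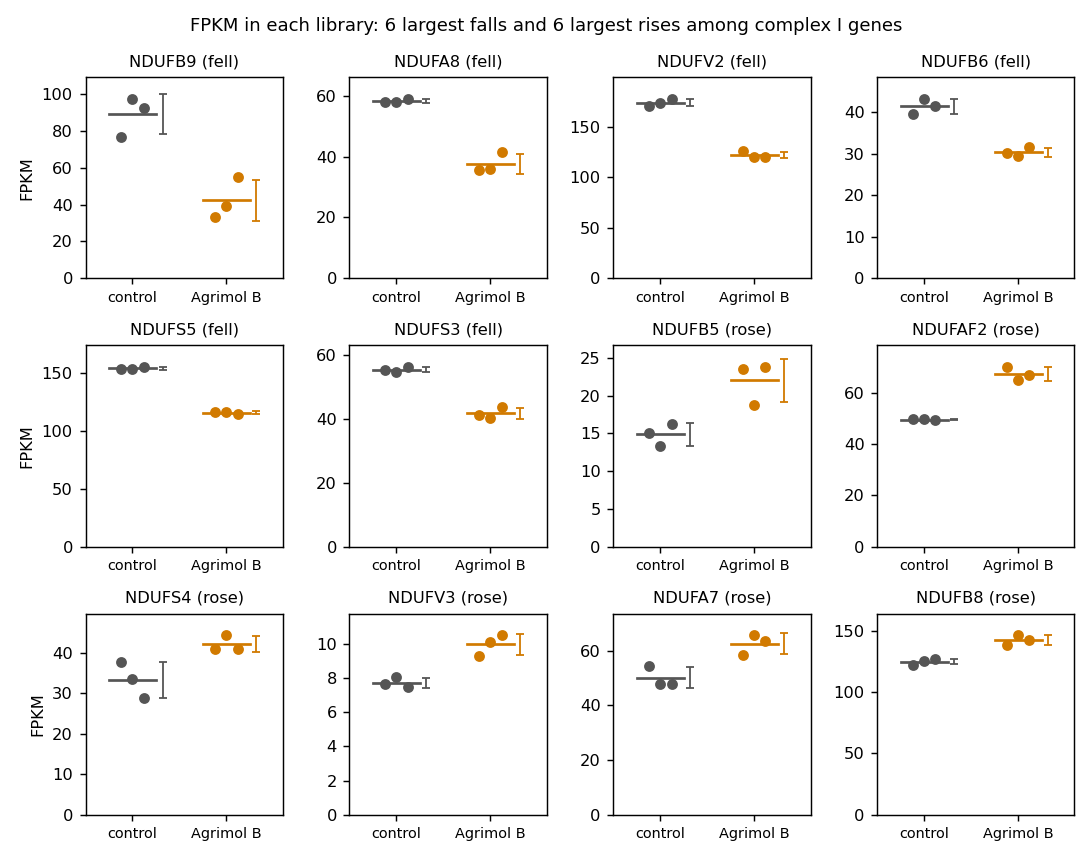
FPKM in each library for the 6 largest falls and the 6 largest rises among called members; dots are libraries, lines group means, bars the SD (n = 3), and each axis starts at 0. In all 12 panels the Agrimol B libraries lie wholly on 1 side of the control libraries.

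Across the 46 tested members the groups did not overlap in 24, with Agrimol B above in 9 and below in 15, against 62.2% of all tested genes, 36.2% above and 26.0% below. Of the 28 members not called, 22 had a 95% interval of the difference that stayed within 1.5-fold either way, and 13 one that stayed within 1.2-fold. For NDUFA10, a subunit of the proximal arm, the interval ran from -0.12 to 0.07 on the log2 scale. Among others, the intervals of NDUFS7, NDUFS8, NDUFB3, NDUFA6 and NDUFA13 reached 1.5-fold, and these data leave differences of that size undetermined.

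NDUFA4 and its relative NDUFA4L2 carry complex I names, but NDUFA4 is now counted as a subunit of complex IV. NDUFA4 had 52.1, 45.6 and 47.1 FPKM in control and 42.2, 42.7 and 42.1 FPKM with Agrimol B, and fell 1.14-fold (adjusted p = 0.0362). That call was lost without control replicate 1 (0.0605) or 3 (0.0635) or any Agrimol B replicate (0.0766 to 0.0871), in a range of 0.0114 to 0.0871 over the alternatives. NDUFA4L2, a gene induced by hypoxia in many cells, was the lowest member and fell short of the filter. It had 0.692, 0.848 and 0.299 FPKM in control and 1.201, 1.57 and 1.28 FPKM with Agrimol B, with all Agrimol B values above the control values. With no filter its log2 difference was 0.56 (adjusted p = 0.0222). Its gene (chromosome 12, 57234903 to 57240715, minus strand) overlaps SHMT2 on the opposite strand, which rose from a mean of 107 to 205 FPKM (adjusted p = 3.22e-05). Whether reads of SHMT2 enter the value of NDUFA4L2 was not tested.

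Among the assembly factors, NDUFAF2 and NDUFAF7 were called and 6 were not. The share called was 25%, against 52.0% of all tested genes. NDUFAF2, a relative of NDUFA12 that holds its place late in the assembly of the N module (chromosome 5, 60945129 to 61153037, plus strand), had 49.6, 49.7 and 49.3 FPKM in control and 70.1, 65.0 and 66.9 FPKM with Agrimol B. The groups were far apart and the rise was 1.36-fold (log2 difference 0.43, SE 0.04, adjusted p = 0.000381). NDUFA12 itself was not called, at 52.0, 37.0 and 34.6 FPKM in control and 41.6, 33.9 and 34.5 FPKM with Agrimol B. ERCC8, which starts 56 bases from NDUFAF2 in the opposite direction, stood at 7.78 and 7.94 FPKM (adjusted p = 0.684). NDUFAF7, a mitochondrial methyltransferase, had 13.7, 14.2 and 12.6 FPKM in control and 11.3, 11.3 and 10.4 FPKM with Agrimol B (1.23-fold lower, adjusted p = 0.0128).

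In the remaining NDUFAF genes the groups overlapped and no difference was called. NDUFAF3 had 28.9, 24.5 and 24.9 FPKM in control and 31.5, 24.6 and 27 FPKM with Agrimol B. NDUFAF4, with which it acts early in the assembly of the Q module, had 11.9, 14.5 and 13.9 FPKM in control and 14.1, 12.8 and 13.6 FPKM with Agrimol B. Their log2 differences were 0.08 and 0.0084, within the spread of either group. NDUFAF5, which hydroxylates NDUFS7, had 4.77, 4.51 and 3.76 FPKM in control and 4.72, 5.62 and 4.1 FPKM with Agrimol B. Its partner NDUFAF8 had 67.3, 69.4 and 64.4 FPKM in control and 62.1, 67 and 64.1 FPKM with Agrimol B. The pair thus differed far more in level than either did between groups. NDUFAF1, a part of the membrane-bound assembly complex, had 9.11, 11.6 and 9.91 FPKM in control and 10.6, 9.25 and 10.3 FPKM with Agrimol B. NDUFAF6, needed early in assembly, had 12.2, 11.6 and 12.4 FPKM in control and 11.6, 12.9 and 13.5 FPKM with Agrimol B. Their log2 differences were -0.02 and 0.06.

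Assembly factors without an NDUF name included a rise past 2-fold. Of 12 such genes 4 rose and 1 fell (33.3% and 8.33%, median 0.04), against 30.6% and 21.4% of all tested genes. TIMMDC1, a membrane factor for the proximal arm, had a mean of 15.3 ± 1.26 FPKM in control and 32.3 ± 0.429 FPKM with Agrimol B, and rose 2.12-fold (adjusted p = 9.06e-05). DMAC2, a factor for the distal membrane arm, stood at 26.8 ± 2.17 FPKM in control and fell 1.39-fold to 19.3 ± 1.98 FPKM (adjusted p = 0.00752). TMEM126A rose 1.23-fold (adjusted p = 0.0207). ACAD9, ECSIT and TMEM126B, which with NDUFAF1 form that membrane-bound assembly complex, were not called (log2 differences -0.16, -0.34 and 0.07). In ECSIT all Agrimol B values lay below all control values (limma adjusted p = 0.0575), while the groups of ACAD9 and TMEM126B overlapped.

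Transcripts of genes that serve the supply of cofactors also went both ways. Of 14 genes that build or insert iron-sulfur clusters, 3 rose and 3 fell (21.4% each, median 0.02). Among all tested genes 30.6% rose and 21.4% fell. The mitochondrial chaperone HSPA9 rose from 115 ± 6.15 to 195 ± 20.1 FPKM (adjusted p = 0.000674) and the scaffold ISCU from 28.8 ± 0.766 to 42.5 ± 0.902 FPKM (adjusted p = 0.000171), while LYRM4, a partner of the cysteine desulfurase, fell from 4.99 ± 0.376 to 3.16 ± 0.849 FPKM (adjusted p = 0.0240). For flavin, the riboflavin kinase RFK fell 1.41-fold (adjusted p = 0.000941) and the carrier SLC25A32 rose 1.25-fold (adjusted p = 0.00168). Of 11 tested regulators of respiratory genes, PPRC1 rose (9.09%), and TFAM and PPARGC1B fell (18.2%). NRF1 and GABPA were not called (log2 differences -0.14 and -0.14).

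Falls were also counted in the other respiratory complexes. Of 38 tested subunits of complexes II to V 19 fell and 2 rose (50% and 5.26%, median log2 difference -0.23). Of 37 subunits in the arms of complex I, the NDUFA4 pair left out, 10 fell and 5 rose (27.0% and 13.5%, median -0.08). Among all tested genes 21.4% fell and 30.6% rose. The rises of complexes II to V, UQCRQ and ATP5PF, were named after their values were seen. Their number became 0 with median-ratio scaling (24 falls), with the replicate block, with no variance trend, and without any 1 library except Agrimol B replicate 1, without which it was 1; falls ran from 15 to 19 over the libraries left out. The medians of complexes II, III, IV and V were -0.31, -0.26, -0.23 and -0.14. The difference between complexes was not tested. These lists were chosen with earlier results of these data known.

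**Figure D4:**
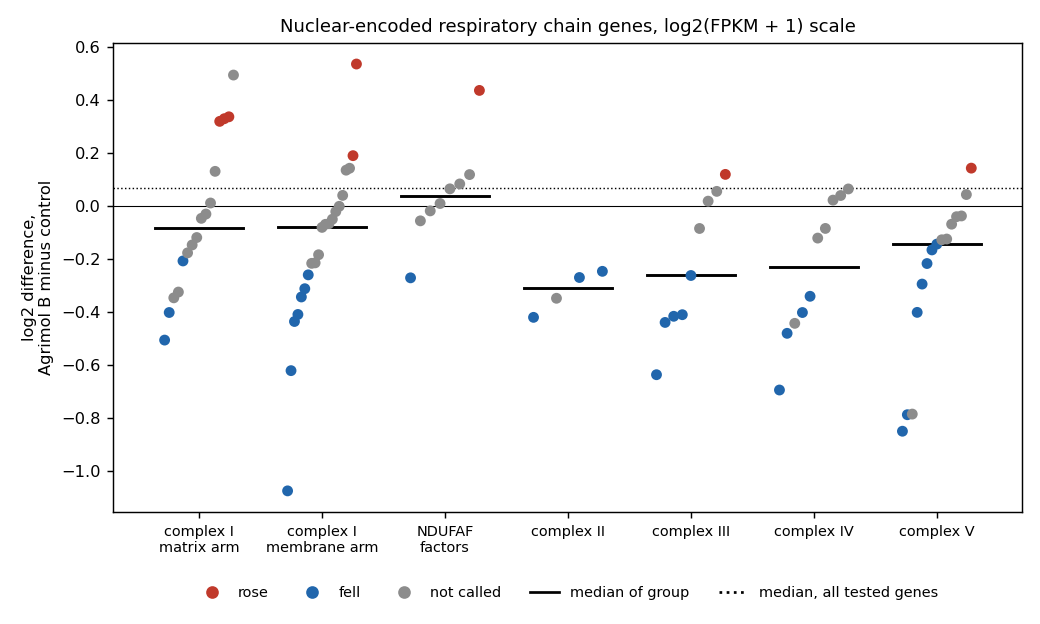
Log2 difference, Agrimol B minus control, on the log2(FPKM + 1) scale for each tested gene of the matrix and membrane arms of complex I, its NDUFAF factors, and complexes II to V; colours show the call, bars the group medians, the dotted line the median of all tested genes (0.07). Rises are 5 in the arms of complex I and 2 in complexes II to V, where the count falls to 0 or 1 when any 1 library is left out.

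For the libraries as a whole, total FPKM lay between 352990 and 359537, and 11993 to 12134 genes reached 1 FPKM. The number of reads behind these values is unknown. Among bone and mesenchymal markers RUNX2 (4.76 to 8.16 FPKM), COL1A1 (286 to 436 FPKM) and SPARC were present, BGLAP stayed at or below 0.221 FPKM, and SP7 and IBSP were not analysed here. Summed over 8 of these markers the level was 1459 to 1549 FPKM in control and 1014 to 1069 FPKM with Agrimol B, a sum made up mostly of VIM, COL1A1 and SPARC. Of the 7 tested, 5 fell, SPP1 rose from 3.51 to 7.67 FPKM (adjusted p = 0.000882), and RUNX2 was not called. Of markers of epithelial, blood and endothelial cells, PTPRC and PECAM1 were at or near 0 while EPCAM stood at 12.8 to 14.7 FPKM, and the sum over 8 was 18.8 to 19.0 FPKM in control and 20.4 to 27.9 FPKM with Agrimol B. In that list CD68 rose from a mean of 4.22 to 9.002 FPKM (adjusted p = 0.00109), KRT19 was at 0, 3.17 and 2.68 FPKM with Agrimol B and at most 0.209 FPKM in control (not called), and VWF and CDH5 stayed at or below 0.378 and 0.410 FPKM. The part of these markers in the results was not tested.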

How the data were processed

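Gene expression was measured by RNA sequencing in 3 Agrimol B and 3 control libraries; per the labels' protocols the mRNA kit keeps strand. The authors deposited a table of FPKM values. Per the submitters' processing notes, the tools included HISAT, Trimmomatic, cutadapt and FastQC, on hg38; the FPKM program, annotation, strand setting and filters were not given in these notes or labels. Control columns were matched to samples by number, since their letters are those of the descriptions, swapped.

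Values were analysed as log2(FPKM + 1) in genes whose mean reached 1 FPKM, with limma 3.58.1 in R 4.3.3 (group term, variance trend, two-sided) and Benjamini-Hochberg adjustment over all 12143 genes; differences on this scale understate the change of low genes, and folds are ratios of mean FPKM. Python 3.11.15 with pandas 2.3.3, numpy 2.4.6 and matplotlib 3.10.9 did the rest. On simulated data of this design (12074 genes), 94% of genes changed 2-fold and 72% of those changed 1.5-fold were recovered. Of 175 calls there, 9 were false. In the real libraries 6311 genes were called, and recovery with that many calls was not tested.

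The members, modules and lists were chosen with earlier results of these data known. Named were the members, except that 1 result is not reported here, with full values for the 6 largest falls and rises and for members with a structural role, and at most 3 called genes per other list; neighbouring genes, uncalled list genes and markers were named after their values were seen. Alternatives were a pseudocount of 0.1, no filter, a filter of 5 FPKM, median-ratio scaling, quantile normalization, each library left out, a replicate block and no variance trend.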

Additional observations from a re-analysis of the deposited data

How the results depend on the processing

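Of the 18 calls among the members, 16 (11 falls and 5 rises) held in the same direction in all 14 settings run, and the calls of NDUFS4 and NDUFA4 did not. Counts of called members, and of subunits and assembly factors in each direction, stayed within 1.5 times in every alternative. In the Q module, falls became 2 with the replicate block and rises 1 without Agrimol B replicate 1 or 3 (0 to 1 over the libraries left out), and in the proximal arm rises became 1 with quantile normalization; the cause was not tested. The replicate block also ended the call of NDUFA4 (adjusted p = 0.0659), and left 6 rises and 12 falls among the members and 5776 calls among all genes. The numbers give no pairing: deviations of same-numbered libraries correlated at 0.0373, -0.00575 and -0.0146, and not every library correlated best with its own number.

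Signs changed only in members that were not called. With median-ratio scaling the log2 differences of NDUFAF4, NDUFA9, NDUFB10 and NDUFAF6 were -0.057, -0.055, -0.031 and -0.0017, and with quantile normalization those of NDUFAF4, NDUFA9 and NDUFAF6 were -0.068, -0.065 and -0.010. Leaving out 1 library gave -0.24 to 0.17 for NDUFC1, -0.070 to 0.062 for NDUFAF4, -0.10 to 0.013 for NDUFA5, -0.091 to 0.069 for NDUFAF1, -0.050 to 0.056 for NDUFA9, -0.011 to 0.16 for NDUFAF3, -0.26 to 0.028 for NDUFA12, -0.33 to 0.0015 for NDUFA6 and -0.0099 to 0.31 for NDUFA13. Median-ratio scaling called NDUFAB1, NDUFB7, NDUFA1 and NDUFA2 as falls. The number of reads behind a value is unknown, which limits what can be said of the lowest member, NDUFA4L2.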
